A study of Mus musculus with 6 samples.

Results

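The cells described here are those of bone marrow from young mice, taken 24 h after an experimental stroke or at steady state. All cells whose library label named 1 of these 2 sources were taken, provided they had at least 500 unique transcript counts (UMIs) and at most 10% mitochondrial UMIs. The rule held for 10478 of the 28055 barcodes of the series, 8213 of steady-state marrow and 2265 of marrow after stroke. Both groups were wild-type mice. The stroke group had its middle cerebral artery occluded 24 h before and the other group had no treatment. In both groups, fractions of marrow rich in Gr1+ and c-kit+ cells had been sorted, and transcripts were counted with the 3′ droplet chemistry of 10x Genomics (v3.1). Each group was 1 library, so none of the differences has a replicate check, and every interval given covers counting error only. Ages and numbers of mice are not stated in the labels. Marrow of aged wild-type mice, sorted in the same way with and without stroke, gave a second pair of libraries that shares none with the young pair, and its values are set beside those of the young mice.

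Bone marrow makes neutrophils in steps that can be read from granule genes. Progenitors first make the azurophil granule enzymes (Mpo, Elane), dividing pre-neutrophils and then immature neutrophils make the specific granule proteins (Ltf, Camp, Ngp), and mature neutrophils carry the receptors for release and chemotaxis (Csf3r, Cxcr2). Monocytes arise from the same progenitors under the transcription factor Irf8. An acute injury of the brain is known to raise adrenal glucocorticoids and granulocyte growth factors, which act on marrow cells, and stress hormones are known to move lymphocytes between blood, lymphoid organs and marrow. The study's design text names the comparison of young and aged mice at rest and after stroke, and the question here is what each marrow lineage of young mice looked like after stroke.

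The steady-state library held 72743805 UMIs and the kept cells of the stroke library 30783449 UMIs, with medians of 7743 and 7981 UMIs a cell. Within the lineages defined below the medians lay further apart. They were 5506.5 and 13524 in stem and progenitor cells, 8684.5 and 27402 in dividing pre-neutrophils, 5337.5 and 14111 in immature neutrophils and 7041 and 20679.5 in monocytes. After stroke they were lower in granulocyte progenitors (11939 and 1243), erythroid cells (11168 and 9004.5) and the B lineage (5391 and 3941). The stroke library stood apart in ways that touch every result: 31.6% of its kept cells had under 2500 UMIs against 0.122% at steady state, 8.79% had over 40000 UMIs against 0, and UMIs of genes with ribosomal RNA-like sequence (such as Mir6236 and Lars2) made up 2.22% against 0.570%. The deposited cells end at a mitochondrial share of 9.90% after stroke and 4.91% at steady state, close to limits of 10% and 5%, so a cut made before deposit and a difference between the libraries cannot be told apart. The aged pair showed the same contrasts, with 2.12% against 0.524% ribosomal RNA-like UMIs, so preparation and stroke cannot be told apart. The libraries shared 7 cell barcodes. The sorting markers were present in both: Kit (the c-kit receptor) had 78.9 and 37.8 UMIs per 1000000 UMIs (CPM) at steady state and after stroke, Ly6g 120 and 93.8 CPM, and Ly6c2, whose product the Gr1 antibody also binds and which shares sequence with copies, 1084 and 851 CPM.

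Cells were assigned to lineages by the share of their UMIs in fixed marker genes. Cells that passed the thresholds of 2 lineages were set aside, with exceptions. Dividing pre-neutrophils and immature neutrophils kept that class beside a granulocyte progenitor or mature neutrophil threshold. A stem threshold did not bar granulocyte progenitors or lineages outside the neutrophil and monocyte path. A conventional dendritic threshold did not bar B lineage cells. Dividing, immature and mature neutrophils with 50% or more of certain other thresholds were also set aside. These rules took 1316 cells (16.0%) at steady state, 677 of them with granulocyte and monocyte markers together. After stroke they took 183 cells (8.08%), 17 of them of that kind. No threshold was passed by 366 cells (4.46%) at steady state and by 494 cells (21.8%) after stroke, and 72.7% of the latter had under 2500 UMIs. The share of stem and progenitor cells was 17.9% (exact binomial 95% interval 17.1 to 18.8%, 1472 cells) at steady state and 7.37% (6.33 to 8.53%, 167 cells) after stroke. Granulocyte progenitors made up 14.5% (13.7 to 15.3%, 1191 cells) and 7.90% (6.82 to 9.09%, 179 cells). Dividing pre-neutrophils made up 9.57% (786 cells) and 4.46% (101 cells), whereas immature neutrophils were near the same share in both, 10.1% (9.46 to 10.8%, 830 cells) and 9.76% (8.57 to 11.1%, 221 cells).

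Mature neutrophils were 0.390% (0.267 to 0.550%, 32 cells) at steady state and 5.61% (4.70 to 6.64%, 127 cells) after stroke. Monocytes were 14.6% (1202 cells) and 18.5% (420 cells), plasmacytoid dendritic cells 2.95% (242 cells) and 1.55% (35 cells), and erythroid cells 5.45% (448 cells) and 3.71% (84 cells). The lymphoid lineages, which the sort was not aimed at, were scarce at steady state: the B lineage went from 0.572% (0.421 to 0.760%, 47 cells) to 3.09% (2.42 to 3.89%, 70 cells) and T and NK cells from 0.694% (0.526 to 0.898%, 57 cells) to 5.65% (4.74 to 6.68%, 128 cells). The stroke library held larger shares of mature neutrophils and lymphocytes and smaller shares of progenitors, beyond counting error. The Gr1+ and c-kit+ enrichment and the fraction of droplets with few UMIs can set these shares, and their part was not tested. Many cells lay near a threshold, among them 923 cells at steady state and 162 after stroke within 25% of the stem and progenitor threshold, and 632 and 196 within 25% of that for monocytes. For mature neutrophils they were 150 and 61, for the B lineage 132 and 10, and for T and NK cells 164 and 23. At steady state each of these exceeds the cells assigned to the lineage. Mature markers in immature neutrophils had a 90th percentile of 187 and 290 UMIs per 10000, above the mature threshold of 150. How far these shares depend on the height of the thresholds was not tested.

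**Figure D1:**
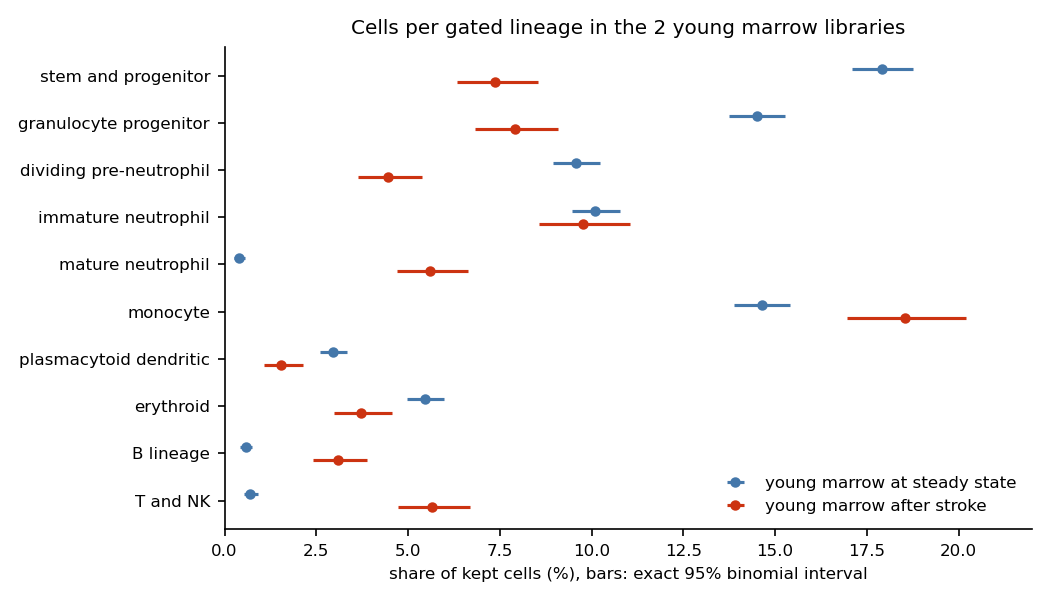
Share of the kept cells (x axis, percent) in each marker-gated lineage (y axis) of the 2 young marrow libraries, with exact 95% binomial intervals as bars. Stem and progenitor cells sit at 17.9% and 7.37%, and mature neutrophils, B lineage and T and NK cells lie to the right only in the library after stroke.

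Within a lineage, raw UMIs were summed over its cells and scaled to CPM, and the log2 ratio is that of stroke over steady state. A gene counts as measured with at least 20 CPM in 1 library and 20 UMIs over both, and as past the fold at a log2 ratio of 1 or more in size. Genes whose last 500 transcript bases are shared in at least 10% with another gene or pseudogene moved as a class: those with 40% or more shared sequence had a median log2 ratio of 1.06 in monocytes, 1.08 in stem and progenitor cells and 1.27 in erythroid cells, against -0.46, -0.46 and -0.60 for genes without a copy. In immature and mature neutrophils that class had -0.05 and 0.21. Genes with a copy are therefore uncertain, and the counts below are given for all genes on CPM and then for genes without a copy relative to their own median, called here the relative ratio. In aged marrow the median of genes without a copy lay between -0.34 and -0.64 over the same lineages. Among young genes without a copy the ratio also fell with gene span in most lineages. With genes split by span into equal groups, the shortest and longest had medians of -0.05 and -0.77 in granulocyte progenitors. These were -0.18 and -0.78 in monocytes, -0.28 and -0.61 in stem and progenitor cells, and -0.35 and -0.33 in immature neutrophils. The relative ratio does not take this off, and its part in single genes was not tested.

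**Figure D2:**
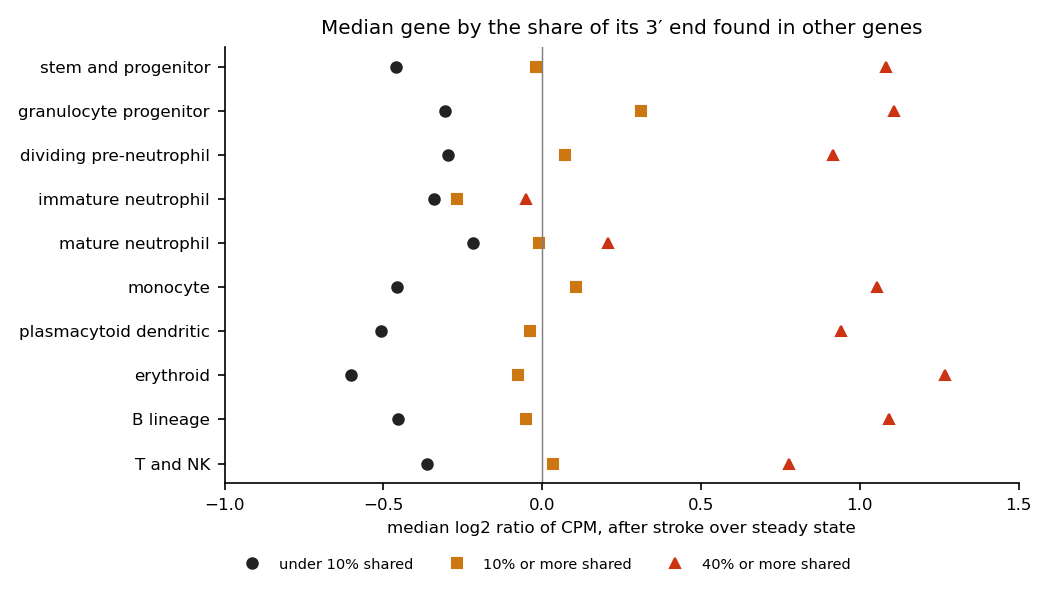
Median log2 ratio of CPM, stroke over steady state (x axis), in each lineage (y axis) for genes with under 10%, with 10% or more and with 40% or more of their 3′ sequence shared with other genes. In 8 of the 10 lineages the median of the most shared genes lies above 0.7, and that of the least shared genes lies below 0 in every lineage.

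Monocytes after stroke had higher levels of most measured alarmin and secreted neutrophil protein genes, and of the single genes Il1r2 and Vcan. Over all genes 326 of 6425 (5.07%) were past the fold upwards and 1012 (15.8%) downwards. Among the 5348 genes without a copy, 232 (4.34%) had a relative ratio past the fold upwards and 260 (4.86%) downwards. Il1r2, the interleukin-1 decoy receptor (GRCm38 chromosome 1, 40074079 to 40125231), had 3.62 CPM at steady state and 143 CPM after stroke, a log2 ratio of 5.30 (95% counting interval 4.81 to 5.84). Vcan, the matrix proteoglycan versican, had 19.3 and 381 CPM (log2 ratio 4.30, 4.09 to 4.53). Both genes were low at steady state and higher after stroke by more than counting error. Pla2g7, the platelet-activating factor hydrolase, had 7.35 and 178 CPM, and Igfbp6, a binding protein of insulin-like growth factors, had 0.426 CPM, from few UMIs, and 50.2 CPM (log2 ratio 6.88, 5.51 to 8.76).

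Lcn2, the siderophore-binding lipocalin of neutrophil granules, had 210 CPM in monocytes at steady state and 2240 CPM after stroke. S100a8 had 2805 and 17184 CPM and its partner S100a9 3592 and 8435 CPM; together they form calprotectin. Lrg1, an acute phase glycoprotein, had 9.27 and 123 CPM, Wfdc21 83.9 and 791 CPM, and Hp (haptoglobin) 448 and 1575 CPM. All 6 genes were higher after stroke. Of 11 measured alarmin and secreted neutrophil protein genes without a copy, 8 had a relative ratio past the fold upwards and 0 downwards, with a median of 1.71 in young mice and 1.43 in aged mice. Of the specific granule list 3 of 5 were past the fold upwards and 0 downwards (median 1.97, and 1.02 on plain CPM with copies kept). Those 5 leave out Camp, Ngp and Ltf, which served as gate genes and were lower after stroke, with 337 and 47.8 CPM, 277 and 45.9 CPM, and 116 and 12.4 CPM. Retention and release receptors gave 1 of 9 upwards and 0 downwards (median -0.02). Saa3, an acute phase apolipoprotein, had 0.853 and 498 CPM, but 12.3% of its 3′ sequence is shared and the value is uncertain; it was chosen after its values were seen.

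Single neutrophil markers did not go one way in monocytes. The summed specific granule stage markers had a median share of 7.7 UMIs per 10000 at steady state and 38.0 after stroke, but among them Chil3, which monocytes also make and which has a copy, went from 445 to 4301 CPM while Camp, Ngp and Ltf were lower. Mature neutrophil markers had a median share of 6.3 and 13, with Retnlg, a resistin-like protein of neutrophils, lower at 464 and 199 CPM. Erythroid cells had like levels at steady state and were also lower after stroke, with Camp at 305 and 38.7 CPM and Retnlg at 378 and 19.9 CPM. In plasmacytoid dendritic cells both were higher, with 285 and 364 CPM and 423 and 738 CPM. How far free RNA made up these monocyte values was not tested. In other lineages outside the neutrophil path, the alarmin genes were lower after stroke in some and higher in plasmacytoid dendritic cells; the part of free RNA was not tested. S100a8 had 2666 and 270 CPM in stem and progenitor cells, 2204 and 200 CPM in erythroid cells and 4517 and 622 CPM in T and NK cells. Lcn2 had 176 and 47.9 CPM in stem and progenitor cells and 287 and 54.5 CPM in T and NK cells. In plasmacytoid dendritic cells S100a8 had 2730 and 7404 CPM, S100a9 3582 and 7903 CPM and Lcn2 153 and 476 CPM. There 98.3% of the S100a8 UMIs after stroke lay in 10 of 35 cells, and without the 10 richest cells of each library the log2 ratio was -2.73 for S100a8, -2.50 for S100a9 and -1.35 for Lcn2. In monocytes it was 2.75 for S100a8 and 3.61 for Lcn2 without them. Cells that hold both a neutrophil and a monocyte were not told apart beyond setting aside cells that pass 2 thresholds.

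Several single genes known from progenitors were lower in monocytes after stroke, though the lists that hold such genes were hardly measured. Stem cell identity genes gave 0 of 3 upwards and 1 downwards (median 0.48, but -0.55 with genes of 5 CPM or more and -0.45 with those of 100 CPM or more), and B cell development genes 0 of 3 upwards and 1 downwards (median -0.88). Bcl2, the survival factor, had 176 CPM at steady state and 17.4 CPM after stroke (log2 ratio -3.34, -3.57 to -3.11). Cd34, the progenitor antigen, had 89.7 and 9.94 CPM, Sox4, a progenitor transcription factor, 110 and 15.9 CPM, and Ccnd1 (cyclin D1) 100 and 15.6 CPM. Irf8 itself, which drives the monocyte fate, had 1395 and 422 CPM (log2 ratio -1.73, -1.78 to -1.68). Stem and progenitor markers moved with them, with a median share of 1.6 and 0.4 UMIs per 10000 in monocytes. In the 924 and 404 monocytes with under 5 stem-marker UMIs per 10000, the log2 ratio was -1.10 for Sox4, -2.24 for Cd34, -2.56 for Bcl2 and -1.56 for Irf8, and it was 5.38 for Il1r2, 3.88 for Vcan and 3.33 for Lcn2. Immunoglobulin mRNA was also lower, Ighm with 562 and 92.8 CPM and Igkc with 405 and 17.9 CPM, but 90.5% of the steady-state UMIs of Igkc lay in 10 cells, and without the 10 richest cells of each library its log2 ratio was -2.16.

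Other lists in monocytes moved less. Of 23 oxidative phosphorylation genes without a copy, 3 had a relative ratio past the fold upwards and 0 downwards (median 0.63, aged 0.66), and of 14 unfolded protein response genes 3 upwards and 0 downwards (median 0.77). Of 15 interferon-stimulated genes 0 were past the fold upwards and 4 downwards (median -0.56, aged -0.69), with Irf7, the amplifier of type I interferon, at 25.4 and 11.1 CPM. Clec4e, a sensor of dying cells, had 11.7 and 50.5 CPM, and the chemokine receptor Ccr1 40.7 and 99.4 CPM. In aged mice 164 of the 225 young higher genes that were measured there were past the fold upwards and 0 downwards, where 5.0% of all aged genes were past it upwards; of the 235 measured lower genes 166 were past it downwards and 0 upwards, against 5.78%. The aged log2 ratio was 5.82 for Il1r2, 2.59 for Vcan, 3.13 for Lcn2 and -2.73 for Bcl2.

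**Figure D3:**
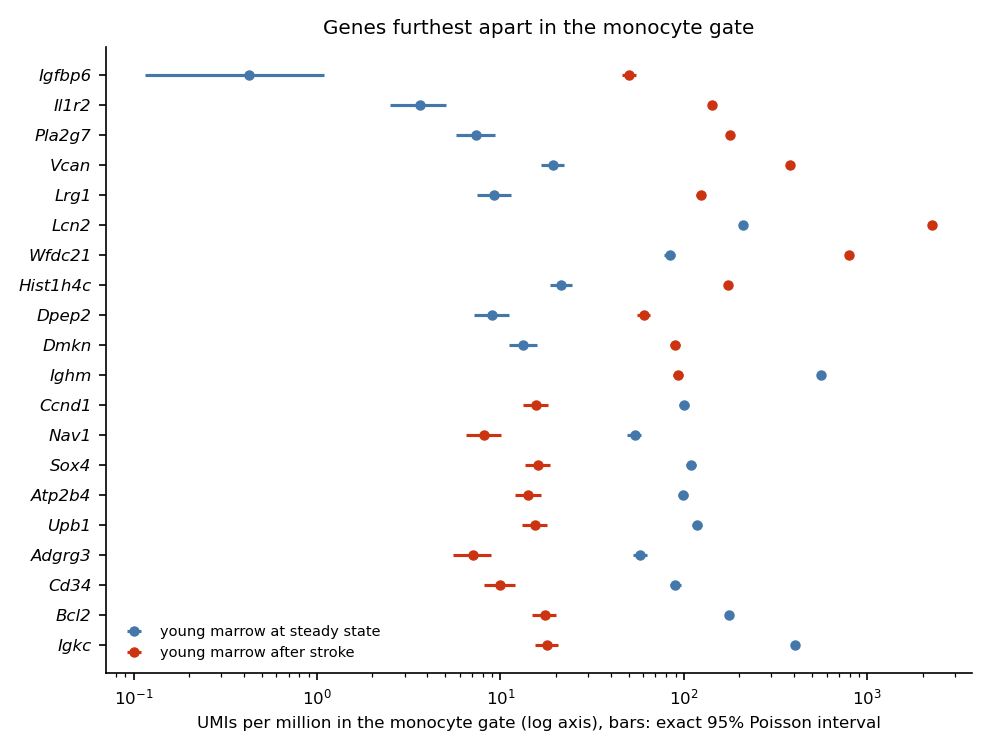
CPM (x axis, log scale) of the 10 genes furthest up and the 10 furthest down in monocytes (y axis) in the 2 young libraries, with exact 95% Poisson intervals as bars. Il1r2 lies at 3.62 CPM at steady state and 143 CPM after stroke, and Bcl2 at 176 and 17.4 CPM.

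The glucocorticoid-responsive list, 22 genes known to respond to the hormone's receptor, had a median relative ratio above 0 in every lineage, and below 0 on plain CPM only in granulocyte progenitors (-0.09). Ddit4, an inhibitor of growth signalling, had 8.12 and 81.9 CPM in stem and progenitor cells (log2 ratio 3.33, 2.95 to 3.73), 2.66 and 42.0 CPM in monocytes, 7.54 and 107 CPM in plasmacytoid dendritic cells, 6.50 and 128 CPM in the B lineage and 28.3 and 131 CPM in T and NK cells. Tsc22d3, the leucine zipper protein GILZ, had 47.8 and 170 CPM in stem and progenitor cells, 40.8 and 112 CPM in monocytes, 21.8 and 324 CPM in plasmacytoid dendritic cells, 45.5 and 483 CPM in the B lineage and 48.5 and 233 CPM in T and NK cells. Both genes were higher after stroke in each of these 5 lineages. In cells of the specific granule stage Tsc22d3 had 43.2 and 72.8 CPM in dividing pre-neutrophils and 43.9 and 86.0 CPM in immature neutrophils. In monocytes the metal-binding protein Mt1 had 33.8 and 151 CPM, the transcription factor Klf9 7.67 and 34.2 CPM, and the receptor co-chaperone Fkbp5 47.5 and 99.2 CPM.

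By counts, 8 of 13 measured list genes without a copy had a relative ratio past the fold upwards and 0 downwards in stem and progenitor cells (median 1.19, aged 0.96), where 2.42% of all genes without a copy were past it upwards; on plain CPM 2 were past it upwards and 1 downwards. Monocytes gave 7 up and 1 down of 13 (median 1.52, aged 0.73, against 4.34% of all genes upwards). Plasmacytoid dendritic cells gave 8 up and 0 down of 11 (1.52, aged 1.43 from only 11 cells after stroke, against 9.90%). Erythroid cells gave 7 up and 1 down of 11 (1.38, aged 0.81, against 3.80%), the B lineage 8 up and 1 down of 11 (2.42, aged 1.49, against 12.8%) and T and NK cells 6 up and 0 down of 13 (0.98, aged 1.27, against 8.55%). The granulocyte lineage gave 2 up and 1 down of 10 in granulocyte progenitors (median 0.22, against 3.71%), 2 up and 0 down of 9 in dividing pre-neutrophils (0.67, against 2.39%), 3 up and 0 down of 11 in immature neutrophils (0.44, against 3.30%) and 6 up and 0 down of 13 in mature neutrophils (0.58, against 10.7%). On plain CPM granulocyte progenitors gave 1 up and 2 down. Il1r2 and Ddit4 are members of the list and Il1r2 also belongs to the growth factor list below. Both lists were chosen with earlier results of these data known, so their counts are a description and no test.

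**Figure D4:**
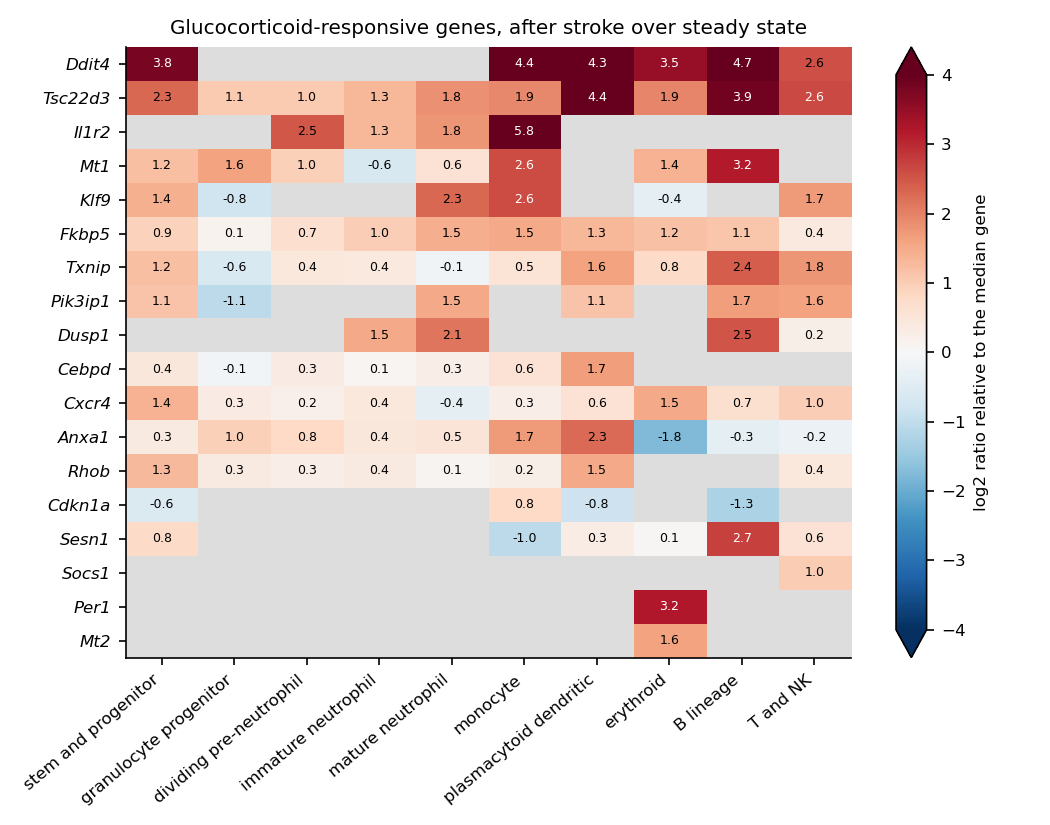
Relative log2 ratio, stroke over steady state, of glucocorticoid-responsive genes (y axis) in each lineage (x axis), with the value printed in each cell and grey where a gene was not measured or is a gate gene. Ddit4 and Tsc22d3 are red in each lineage where they were measured.

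The list of G-CSF and STAT3 response genes, which follow the growth factor that mobilises neutrophils, was higher in monocytes (5 of 9 past the fold upwards and 0 downwards, median relative ratio 1.0, aged 1.28, against 4.34% of all genes upwards). It gave 3 of 9 upwards in dividing pre-neutrophils (median 0.80, against 2.39%), 2 of 9 in immature neutrophils (0.73, against 3.30%) and 4 of 13 in mature neutrophils (0.39, against 10.7%). Plasmacytoid dendritic cells gave 5 of 8 (1.59, against 9.90%) and stem and progenitor cells 3 of 7 (0.45, and -0.02 on plain CPM with copies kept, against 2.42%), and none of these 5 lineages had a member past the fold downwards. Pim1, a kinase induced by STAT proteins, had 171 and 384 CPM in stem and progenitor cells and 58.3 and 85.1 CPM in monocytes. Socs3, the feedback inhibitor of the receptor, was below 20 CPM in both libraries in stem and progenitor cells (3.42 and 18.4 CPM) and in monocytes (1.28 and 14.8 CPM). Windows from 250 bases before to 50 after the start of the 12 list genes found in the RefSeq table were searched on both strands for TTCNNNGAA, the palindromic word of STAT sites; 4 of the 12 genes (Cish, Il1r2, Socs3 and Steap4) held it, and 9.55% of all 27025 genes did. For the glucocorticoid-responsive list the half-site word AGAACA was found in 3 of 20 genes (Cxcr4, Sgk1 and Tsc22d3), where 21.3% of all genes held it, and its inverted repeat with 3 bases between the copies, which contains that word, in 1 of the 20 (Sgk1), where 0.0111% of all genes held it. The windows of Il1r2, which had one of the highest ratios in monocytes, and of Socs3, the receptor's own feedback inhibitor, are shown with the matching word in capitals, 5′ to 3′ on the gene's strand in RefSeq GRCm38.p6. Both windows were picked from those that hold the word, and that of Il1r2 lies inside the span given above for the gene. A match is a description of the letters and not a bound site.
Il1r2, chr1:40085843-40086142, plus strand: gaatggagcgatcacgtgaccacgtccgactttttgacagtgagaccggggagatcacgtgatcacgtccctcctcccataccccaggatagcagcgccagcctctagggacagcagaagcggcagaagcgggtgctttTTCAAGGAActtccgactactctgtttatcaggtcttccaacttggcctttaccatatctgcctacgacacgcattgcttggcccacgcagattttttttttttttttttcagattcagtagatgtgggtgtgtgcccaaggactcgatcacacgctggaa
Socs3, chr11:117969317-117969616, minus strand: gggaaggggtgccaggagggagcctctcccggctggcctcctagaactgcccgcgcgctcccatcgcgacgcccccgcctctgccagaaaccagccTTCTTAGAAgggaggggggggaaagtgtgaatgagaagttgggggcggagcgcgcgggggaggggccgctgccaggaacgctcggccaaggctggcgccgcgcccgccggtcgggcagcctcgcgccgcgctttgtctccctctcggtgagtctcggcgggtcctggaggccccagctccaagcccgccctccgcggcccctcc

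In stem and progenitor cells few genes moved once the general shift was taken off. On CPM 277 of 6870 genes (4.03%) were past the fold upwards and 715 (10.4%) downwards, and of 5741 genes without a copy 139 (2.42%) had a relative ratio past it upwards and 112 (1.95%) downwards. Besides Ddit4 and Tsc22d3, Wfdc17, a secreted protein of activated macrophages, had 112 and 372 CPM and Tmem158 10.7 and 53.2 CPM. Mir6236, a ribosomal RNA-like gene, had 272 and 1842 CPM, and the replication-dependent histone Hist1h4c 12.9 and 83.8 CPM. These last genes were also higher in the other lineages: Hist1h4c had log2 ratios of 2.66 in granulocyte progenitors, 3.63 in dividing pre-neutrophils, 3.03 in monocytes and 3.34 in erythroid cells. Ccnd1 had 63.2 and 12.6 CPM, and the imprinted non-coding RNA Kcnq1ot1 479 and 122 CPM. The lowest ratios were of neutrophil genes, such as Mmp8 (60.9 and 1.91 CPM) and Retnlg (479 and 24.1 CPM), and the median share of specific granule stage markers in these cells was 6.2 and 1.3 UMIs per 10000; the part of free RNA was not tested. Alarmin and secreted neutrophil protein genes gave 1 of 10 upwards and 5 downwards (median relative ratio -1.13), and of 15 interferon-stimulated genes 0 were past the fold in either direction (median 0.11, and -0.37 on plain CPM with copies kept). After thinning each cell to 1000 UMIs, 86.7% of stem and progenitor cells held a UMI of the cell division and DNA replication lists at steady state and 62.4% after stroke, against 99.0% and 98.8% without thinning. Aged mice gave 73 of 113 measured higher genes past the fold upwards (2.5% of all aged genes) and 42 of 95 lower genes downwards (1.96%), with 0 in the opposite direction.

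Granulocyte progenitors after stroke were shallow: 73.2% of them had under 2500 UMIs, with a median of 1243 UMIs against 11939. On CPM 340 of 5986 genes (5.68%) were past the fold upwards and 862 (14.4%) downwards, and of 4926 genes without a copy 183 (3.71%) and 412 (8.36%) by the relative ratio. With the 1189 and 48 cells of 2500 or more UMIs alone, the counts on CPM were 336 and 884. After stroke the 131 cells under 2500 UMIs can hold only a small part of the 2.55e+06 UMIs summed. Leaving them out could therefore hardly change the counts, which rest on the deeper cells and do not describe the shallow ones. Lsm3, a subunit of the splicing machinery, had 38.4 and 186 CPM, Snu13, another, 121 and 399 CPM, and the non-coding host gene Snhg9 64.2 and 198 CPM. Ctsc, the protease that activates the azurophil serine proteases, had 41.9 and 158 CPM, with 71.7% of its stroke UMIs in 10 cells and a log2 ratio of 0.63 without them, and Lgals3 (galectin-3) had 28.0 and 161 CPM with 89.5% in 10 cells and -0.11 without them. Lower after stroke were the adhesion receptor Adgrg1 (74.7 and 14.1 CPM), Bcl2 (94.3 and 18.8 CPM), the transcription factor Bcl11a (56.4 and 11.7 CPM) and Ighm (92.9 and 18.0 CPM). Gene span, with which ratios differed most widely between its ends in these cells, was not taken off these values. Of the 390 measured lower genes 152 were past the fold downwards and 1 upwards in aged mice (4.37% of all aged genes), and of the 177 higher genes 107 upwards and 0 downwards (3.54%).

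In dividing pre-neutrophils 195 of 4706 genes (4.14%) were past the fold upwards and 254 (5.40%) downwards on CPM, and 93 (2.39%) and 71 (1.82%) of 3897 genes without a copy by the relative ratio. Of these cells 27.7% had under 2500 UMIs after stroke and 0% at steady state. Lipg, endothelial lipase, had 2.95 CPM at steady state and 51.6 CPM after stroke (log2 ratio 4.13, 3.47 to 4.85), and 5.20 in aged mice. Il1r2 had 18.8 and 85.3 CPM (log2 ratio 2.18, 1.87 to 2.5), Ccr1 34.3 and 97.3 CPM and Pim1 24.1 and 51.2 CPM. Irf8 had 74.4 and 7.49 CPM. Olfm4, a specific granule protein found in a subset of neutrophils, had 221 and 25.8 CPM (log2 ratio -3.10, -3.49 to -2.73) in young mice and a log2 ratio of 0.50 in aged mice. The cyclin-dependent kinase Cdk6 (97.8 and 27.5 CPM) and the chaperone Calr (235 and 87.3 CPM) were also lower. Wfdc17 had 14.5 and 101 CPM, with 87.6% of its stroke UMIs in 10 cells. Of 78 higher genes measured in aged mice 60 were past the fold upwards and 0 downwards (2.73%), and of 64 lower genes 36 downwards and 1 upwards (2.19%).

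Immature neutrophils were gated as cells of the specific granule stage with under 10 dividing-marker UMIs per 10000. They had 111 of 4144 genes (2.68%) past the fold upwards and 539 (13%) downwards on CPM. Of 3482 genes without a copy, 115 (3.30%) and 221 (6.35%) were past it by the relative ratio. The lower genes were led by azurophil granule enzymes, of which 8 of 9 were past the fold downwards and 0 upwards (median -3.28, aged -1.0). Elane, neutrophil elastase, had 1033 CPM at steady state and 15.8 CPM after stroke, Mpo, myeloperoxidase, 538 and 16.1 CPM, Ctsg, cathepsin G, 266 and 12.7 CPM, and Prtn3, proteinase 3, 522 and 42.4 CPM. All 11 DNA replication genes without a copy were past the fold downwards (median -2.24, aged -0.52), with Lig1 (DNA ligase 1) at 70.5 and 11.4 CPM. After thinning, 35.9% of these cells at steady state and 15.8% after stroke held a UMI of the division and replication lists. Without thinning the shares were 74.7% and 66.1%. The part of cycling cells left in the gate was not tested. Granulocyte progenitor markers had a median share of 4.2 and 0.5 UMIs per 10000, and gates on cells thinned to 1000 UMIs gave an azurophil median of -1.39. Lineages that do not make these enzymes had like marker shares, with 4.2 and 0 in the B lineage and 4.9 and 0 in T and NK cells. Mpo had 136 and 9.68 CPM in erythroid cells, and the part of free RNA was not tested. Higher were Asprv1, a retroviral-like protease (23.3 and 170 CPM), the ectoenzyme Bst1 (23.7 and 97.8 CPM), S100a6 (2233 and 6292 CPM) and Lrg1 (359 and 793 CPM). Il1r2 had 52.7 and 105 CPM. Alarmin and secreted protein genes gave 4 of 12 upwards and 1 downwards (median 0.78). Of 97 higher genes measured in aged mice 60 were past the fold upwards and 0 downwards (3.39%), and of 162 lower genes 41 downwards and 1 upwards (2.86%).

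Mature neutrophils rest on 32 cells at steady state and 127 after stroke, so intervals are wide. The aged pair held 20 and 95 of them, so its values rest on few cells too. On CPM 317 of 3583 genes (8.85%) were past the fold upwards and 507 (14.2%) downwards, and 321 (10.7%) and 263 (8.73%) of 3012 genes without a copy by the relative ratio. Wfdc17 had 114 CPM at steady state and 2751 CPM after stroke (log2 ratio 4.59, 3.89 to 5.4), and 4.83 in aged mice. Plin2, a lipid droplet coat protein, had 28.5 and 181 CPM (log2 ratio 2.67, 1.28 to 4.56), and the transporter gene Abca13 7.12 and 77.3 CPM (3.44, 0.91 to 8.77). Il1r2 had 157 and 460 CPM, Lrg1 427 and 1193 CPM, the stress-induced phosphatase Dusp1 49.8 and 188 CPM and Tsc22d3 64.1 and 195 CPM. Mpo (263 and 23.7 CPM), Elane (149 and 20 CPM) and Apoe (221 and 7.48 CPM) were lower, and granulocyte progenitor markers had a median share of 5.4 and 0 UMIs per 10000. Mpo was at like levels and also lower in lineages that do not make it, with 136 and 9.68 CPM in erythroid cells, 166 and 34.9 CPM in T and NK cells and 224 and 35.6 CPM in the B lineage. Thbs1, the matrix protein thrombospondin 1, had 114 and 17.5 CPM (log2 ratio -2.71, -3.85 to -1.58) in young mice and a log2 ratio of at least 3.05 in aged mice, whose steady-state library held 0 UMIs of it (counted as 3). Of 252 higher genes measured in aged mice 92 were past the fold upwards and 8 downwards (12.8%), and of 187 lower genes 91 downwards and 9 upwards (12%).

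Plasmacytoid dendritic cells, the interferon-producing dendritic cells, numbered 242 and 35. The aged pair held 93 and 11 of them, the latter under the 30 cells asked of each young library, so its values rest on few cells. On CPM 403 of 6929 genes (5.82%) were past the fold upwards and 1748 (25.2%) downwards, and 578 (9.90%) and 778 (13.3%) of 5839 genes without a copy by the relative ratio. Of 15 DNA replication genes 14 were past the fold downwards and 0 upwards (median -2.20, aged -1.30), with Lig1 at 303 and 11.3 CPM and Mcm2, a subunit of the replicative helicase, at 144 and 5.64 CPM. After thinning, 93.8% of the cells at steady state and 42.9% after stroke held a UMI of the division and replication lists, against 97.9% and 91.4% without thinning. The part of this shift in the other differences was not tested, and in the 69 and 31 cells with under 5 UMIs of the dividing gate markers per 10000 Tsc22d3 had a log2 ratio of 3.02 and Ddit4 2.92. MHC class II genes gave 5 of 6 upwards and 0 downwards (median 1.79, aged 2.63), and 0.59 in those cells. Conventional dendritic markers moved with them in the upper cells: their median share was 3.9 and 4.3 UMIs per 10000 and the 90th percentile 9.2 and 28.9, and their part was not tested. Alarmin and secreted neutrophil protein genes gave 8 of 10 upwards and 0 downwards (median 1.93), the opposite sign to aged mice (-0.63), a difference that was not tested, and the median was -0.08 with gate thresholds 1.5 times as high. Txnip, a glucose-responsive regulator, had 150 and 321 CPM, and Lag3, a receptor for MHC class II, 11.7 and 76.1 CPM. Of 308 higher genes measured in aged mice 157 were past the fold upwards and 18 downwards (11.1%), and of 514 lower genes 217 downwards and 3 upwards (15.7%).

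Erythroid cells, 448 and 84 in number, had 314 of 6187 genes (5.08%) past the fold upwards and 1112 (18.0%) downwards on CPM, and 194 (3.80%) and 147 (2.88%) of 5101 genes without a copy by the relative ratio. After stroke 42.9% of these cells had under 2500 UMIs, against 0% at steady state. Trnp1 had 0 UMIs at steady state and 50.7 CPM after stroke, a log2 ratio of at least 6.59 against a floor of 3 UMIs over the steady-state cells; 80.9% of its UMIs lay in 10 cells, and the gene had 0 UMIs and 37.8 CPM in the aged pair. Mgst3, a glutathione transferase, had 44.1 and 224 CPM. Ddit4 had 4.02 and 29.6 CPM, Per1, a clock gene under hormone control, 4.20 and 25.6 CPM, and Tsc22d3 17.5 and 44.4 CPM. The globin genes, which have copies and serve as gate genes, are not counted: Hba-a1 had 195 and 1366 CPM, with 96.2% of its stroke UMIs in 10 cells. Specific granule genes were lower (5 of 8 downwards and 0 upwards, median -1.96), as were alarmins (6 of 8 downwards, -1.71), and specific granule stage markers had a median share of 5.3 and 0.9 UMIs per 10000. Here too the part of free RNA was not tested. Oxidative phosphorylation genes gave 2 of 23 upwards (median 0.56), and -0.00 on plain CPM with copies kept. Of 168 higher genes measured in aged mice 123 were past the fold upwards and 0 downwards (3.24%), and of 129 lower genes 70 downwards and 0 upwards (4.37%).

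The B lineage cells, 47 and 70 in number, had lower summed levels of division and replication genes and higher levels of MHC class II genes after stroke. Dividing markers had a median share of 4.7 and 0 UMIs per 10000 and a 90th percentile of 103 and 5.0. On CPM 371 of 4187 genes (8.86%) were past the fold upwards and 1028 (24.6%) downwards, and 434 (12.8%) and 480 (14.2%) of 3382 genes without a copy by the relative ratio. Ighd, the heavy chain of IgD on mature naive cells, had 55.2 and 697 CPM (log2 ratio 3.66, 2.95 to 4.46), S1pr1, the receptor for leaving tissue, 6.50 and 122 CPM (4.23, 2.28 to 7.32), the quiescence factor Klf2 136 and 899 CPM, and Ms4a1, which encodes CD20, 198 and 771 CPM. MHC class II genes gave 6 of 7 upwards and 0 downwards (median 2.02), with H2-Aa at 565 and 2580 CPM and Cd74 at 2512 and 8390 CPM. B cell development genes, a list that mixes precursor and mature genes, gave 2 of 8 upwards and 2 downwards (median -0.26, aged -0.39). The 2 lower members were both recombination genes: Dntt, the enzyme that adds bases at recombination joints, had 796 and 228 CPM, and the recombinase Rag1 175 and 59.3 CPM. After stroke all UMIs of each lay in 10 or fewer cells. All 10 DNA replication genes without a copy were past the fold downwards (median -2.79), as were 12 of 13 cell division genes, with Top2a at 793 and 68.2 CPM, and 70.2% and 38.2% of thinned cells held a UMI of the 2 lists (93.6% and 70.0% without thinning). Unfolded protein response genes gave 7 of 13 downwards and 0 upwards (median -1.17, and -0.19 with gates on cells thinned to 1000 UMIs), with the chaperone Hspa5 at 601 and 225 CPM. The immunoglobulin light chain Igkc was found in 72.3% and 92.9% of the cells, and 99.2% of its steady-state UMIs lay in 10 cells. Conventional dendritic markers, which hold MHC class II genes, had a median share of 4.6 and 87.5 UMIs per 10000. Of 338 higher genes measured in aged mice 165 were past the fold upwards and 5 downwards (13.9%), and of 396 lower genes 201 downwards and 12 upwards (15.6%); the aged log2 ratio of Ighd was 0.79.

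T and NK cells, 57 and 128 in number, had far lower summed levels of cell division genes after stroke. Dividing markers had a median share of 2.9 and 0.3 UMIs per 10000 and a 90th percentile of 35.0 and 5.0. The steady-state sum of these genes thus came largely from a part of the 57 cells. On CPM 369 of 5377 genes (6.86%) were past the fold upwards and 867 (16.1%) downwards, and 377 (8.55%) and 370 (8.40%) of 4407 genes without a copy by the relative ratio. All 9 cell division genes without a copy were past the fold downwards (median -4.76, aged -4.59), and Top2a had 461 CPM at steady state and 0 UMIs after stroke, which is a log2 ratio of at most -6.78 against a floor of 3 UMIs. Of the thinned cells 70.2% and 36% held a UMI of the division and replication lists, against 94.7% and 82.8% without thinning. Bbc3, the death-promoting PUMA, had 8.09 and 109 CPM (log2 ratio 3.75, 1.85 to 6.82), and the granule protease Gzmb 12.1 and 51.7 CPM. Txnip had 275 and 725 CPM. MHC class II genes gave 3 of 5 downwards and 0 upwards (median -1.58, but -0.17 with higher gate thresholds and -0.07 in the 36 and 115 cells of few dividing-marker UMIs), and specific granule genes 6 of 8 downwards (median -2.08). Among the latter Camp had 506 and 99.2 CPM, and the part of free RNA was not tested. The linker histone Hist1h1b had 243 and 8.39 CPM (log2 ratio -4.85, -6.36 to -3.65) and a log2 ratio of 2.09 in aged mice. Of 342 higher genes measured in aged mice 125 were past the fold upwards and 4 downwards (11.2%), and of 321 lower genes 117 downwards and 13 upwards (8.11%).

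**Figure D5:**
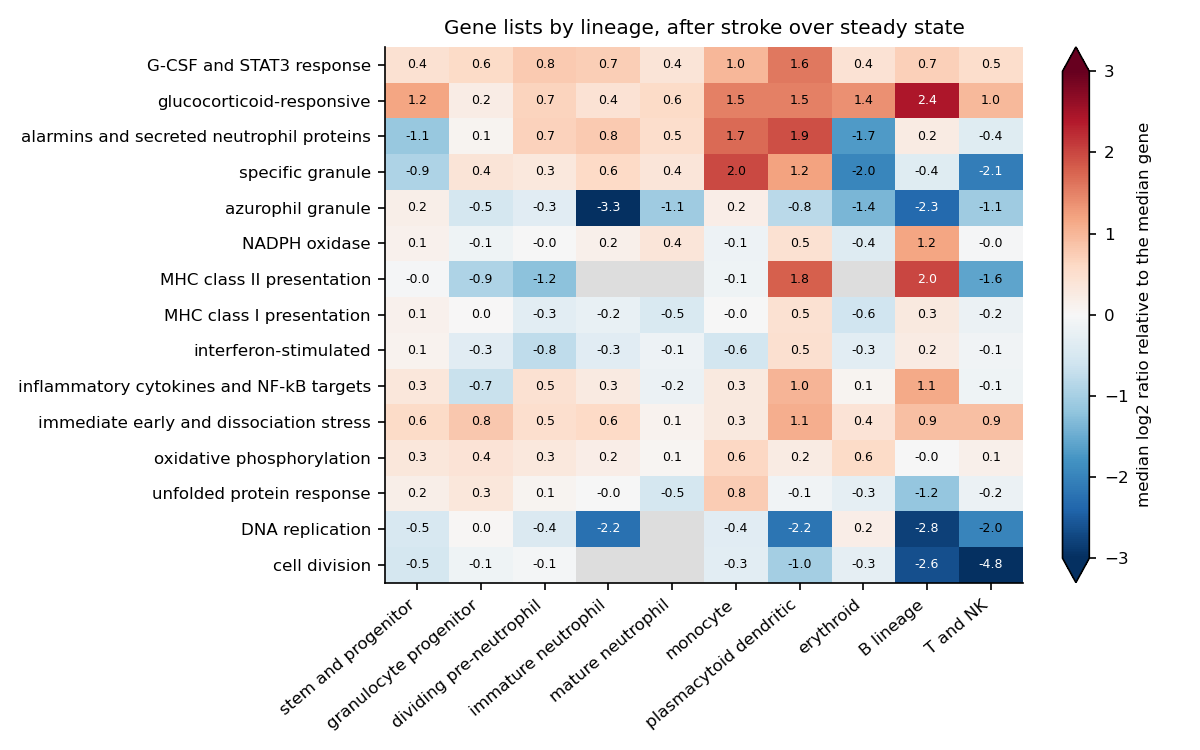
Median relative log2 ratio of the gene lists (y axis) in each lineage (x axis), with the value printed in each cell and grey where too few members were measured. The glucocorticoid-responsive and G-CSF lists lie above 0 in every lineage on this scale (on plain CPM the G-CSF list lies at -0.02 in stem and progenitor and -0.17 in erythroid cells, and the glucocorticoid list at -0.09 in granulocyte progenitors), and the cell division list has its lowest values in T and NK cells (-4.76) and the B lineage (-2.63).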

How the data were processed

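Single-cell libraries of young mouse marrow after stroke and at steady state, and the aged pair, were used. The values deposited are raw counts of UMIs (23016 genes by 28055 barcodes). Per the submitters' processing notes, GRCm38 was the build and the tools include featureCounts 1.6.4, Subread, STAR 2.5.3a, UMI-tools and Cell Ranger 3.0.2, with no roles. The sources used here do not say how reads matching several genes were treated.

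Cells with at least 500 UMIs and at most 10% mitochondrial UMIs were kept and gated by their share of UMIs in 14 marker lists, with at least 3 markers. Gate thresholds were set after marker shares had been seen. Cells passing 2 lineages' gates were set aside, with the exceptions given above, and no doublet caller was run. Counts were summed per lineage and library. Ratios of CPM carry exact 95% Clopper-Pearson intervals, which cover counting error only and neither cells nor mice. A gene had a copy if at least 10% of the 31-base words in its last 500 transcript bases occurred in another GENCODE vM21 transcript (22772 genes matched). The ratio and its interval were run on simulated Poisson sums of the monocyte gate. These hold no spread between cells or mice, so that run checks the formulas only. Calculations were made with matplotlib 3.10.9, pandas 2.3.3, scipy 1.17.1, numpy 2.4.6 and Python 3.11.15.

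Genes named are the 10 highest and 10 lowest ratios per lineage among genes at 50 CPM in 1 library and 30 UMIs over both, and members of 25 lists. Gate markers, genes with a copy, and Gm, Rik, mt-, Rpl, Rps and haemoglobin genes were left out of that ranking. The members and lists were chosen with earlier results of these data known. Alternatives varied filters, gates, scaling, depth and copies.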

Additional observations from a re-analysis of the deposited data

Results flagged for a closer look

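Thbs1, which encodes thrombospondin 1, had a log2 ratio of -2.71 in mature neutrophils of young mice, from 114 CPM at steady state to 17.5 CPM after stroke. In aged mice the log2 ratio was at least 3.05, with 241 CPM after stroke and 0 UMIs in 20 cells at steady state, counted as 3. It is given here because the ratio was past the fold in opposite directions at the 2 ages. The young values rest on 16 and 14 UMIs, and 21.9% of the 32 steady-state cells held one. The difference between the ages was not tested.

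Hist1h1b, a linker histone made in S phase, had a log2 ratio of -4.85 in young T and NK cells, from 243 to 8.39 CPM, and of 2.09 in aged ones, from 21.3 to 91.0 CPM. It is given for the same reason. In the young steady-state library 93.3% of its 60 UMIs lay in 10 of 57 cells. Among young cells with few dividing-marker UMIs (36 and 115 cells) the log2 ratio was -2.30. The difference between the ages was not tested.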

How the results depend on the processing

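No paired analysis was possible because each group is 1 library and the labels give no replicate numbers. With 1 library a side no replicate can be left out. Summed UMIs were fewest for mature neutrophils (140494, 32 cells) and T and NK cells (247269, 57 cells) at steady state, then for B lineage cells (307760, 47 cells) there and plasmacytoid dendritic cells after stroke (354783, 35 cells).

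Raising the least UMIs a cell to 2500 or 1000, lowering the mitochondrial limit to 5% and leaving out the 2% of cells with most UMIs moved no count of genes past the fold by over 1.5 times, and turned the sign of 1 list median, that of retention and release receptors in monocytes (-0.02 to 0.016 without the 2% of cells). Sums give shallow cells little weight, so a higher least number of UMIs could hardly change the counts in granulocyte progenitors. Over all settings 484 values of list medians stayed within 1.5 times with their sign, 30 moved further and 15 turned; of counts of genes 93 stayed and 33 moved. Of the values for 261 single genes 2914 stayed, 370 moved and 11 turned. Single genes depended most on the 10 cells with most of their UMIs: without them 119 stayed, 109 moved and 6 turned. The minimum of 2500 UMIs, the pair of median-of-ratios with copies left out, and the cells of few dividing-marker or few stem-marker UMIs were chosen after seeing the data.

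Genes past the fold numbered 992, 1202, 449, 650, 824, 1338, 2151, 1426, 1399 and 1236 in stem and progenitor, granulocyte progenitor, dividing pre-neutrophil, immature neutrophil, mature neutrophil, monocyte, plasmacytoid dendritic, erythroid, B lineage and T and NK cells. At 5 CPM or more they were 2109 (stem and progenitor), 2580 (granulocyte progenitor), 1258 (dividing), 1871 (immature), 2530 (monocyte) and 2784 (erythroid). At 100 CPM or more they were 214, 270, 106, 133, 253, 332, 590, 315, 668 and 413 in the first order; fewer genes were tested. With median-of-ratios scaling they were 595 (stem and progenitor), 883 (monocyte) and 745 (erythroid). With that scaling and copies left out they were 251 (stem and progenitor), 595 (granulocyte progenitor), 164 (dividing), 336 (immature), 492 (monocyte), 1369 (plasmacytoid), 341 (erythroid), 914 (B lineage) and 746 (T and NK). Leaving out copies alone gave 278 in dividing pre-neutrophils. The mean of the CPM of single cells gave 876 there and 2359 in erythroid cells. Fewer cells, those of few dividing-marker UMIs, gave 979 (plasmacytoid) and 879 (B lineage).

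List medians with copies kept on plain CPM were -0.016 for G-CSF and -0.37 for interferon genes in stem and progenitor cells, -0.086 for glucocorticoid genes in granulocyte progenitors and -0.0032 for oxidative phosphorylation in erythroid cells, all of the opposite sign to the relative ratio, and 1.02 (specific granule, monocyte), 1.09 and 1.30 (MHC class II, plasmacytoid and B lineage) and 0.78 (glucocorticoid, erythroid), 1.27 (alarmin, plasmacytoid), 0.117 (immediate early, T and NK) and, with turned sign, -0.205 (immediate early, mature neutrophil). Gates on thinned cells gave -1.39 (azurophil, immature), -1.48 and -1.46 (DNA replication, immature and plasmacytoid), 2.55 (MHC class II, plasmacytoid), 1.65 (glucocorticoid, B lineage), -0.193 (unfolded protein response, B lineage), -0.681 (MHC class II, T and NK) and 0.179 (retention receptors, monocyte, turned). Higher gate thresholds gave -2.50 (cell division, plasmacytoid), -1.50 (B cell development, monocyte), -1.28 and -0.173 (specific granule and MHC class II, T and NK) and, turned, -0.077 (alarmin, plasmacytoid), 0.087 (retention receptors, monocyte) and -0.111 (immediate early, mature neutrophil). Means of single cells gave -1.32 (azurophil, immature), -0.68 (specific granule, erythroid), 1.41 (glucocorticoid, B lineage), -3.81 (cell division, B lineage), 1.07 and -0.617 (alarmin, plasmacytoid and erythroid) and, turned, 0.025 (retention receptors, monocyte). Glucocorticoid genes at 5 CPM gave 1.04 (immature) and 0.86 (monocyte), and at 100 CPM 2.27 (T and NK). In monocytes, 5 CPM gave -2.08 (B cell development) and, turned, 0.095 (retention receptors) and -0.553 (stem cell identity), and 100 CPM turned the last to -0.452. In cells of few dividing-marker UMIs the medians were 0.59 (MHC class II, plasmacytoid), 1.61 (glucocorticoid, B lineage), -0.074 (MHC class II, T and NK) and, turned, 0.035 (retention receptors, monocyte).

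Of named genes, Apoe in dividing pre-neutrophils went from 2.26 to -1.36 with gates on thinned cells and to -1.85 without the 10 richest cells. Lgals1 there went from -2.45 to 0.39 as a mean of single cells. Without the 10 richest cells Lgals3 in granulocyte progenitors went from 2.52 to -0.11 and Hist1h4c in plasmacytoid dendritic cells from 2.62 to -0.46. S100a8, S100a9 and Lcn2 in plasmacytoid dendritic cells went from 1.44, 1.14 and 1.64 to -1.88, -2.20 and -0.63 with higher gate thresholds, and to -2.73, -2.50 and -1.35 without the 10 richest cells. The causes were not tested.

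Shares at steady state and after stroke with gates on thinned cells were 7.18% and 1.72% (stem and progenitor), 8.67% and 11.1% (monocyte) and 3.29% and 2.87% (erythroid). In that setting the steady-state shares were 21.1% (granulocyte progenitor), 10.3% (dividing), 8.88% (immature) and 0.207% (mature), the last against 4.28% after stroke. With at least 1000 UMIs the shares after stroke were 8.97% (stem and progenitor), 6.52% (granulocyte progenitor), 6.69% (mature), 21.9% (monocyte) and 6.79% (T and NK).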

Other observations

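Immediate early genes, which cells switch on within minutes of a stimulus or of tissue dissociation, and heat shock genes were read from the same list in every lineage. On the relative ratio, 7 of 12 measured members without a copy were past the fold upwards in plasmacytoid dendritic cells (median 1.10, against 9.90% of all genes without a copy), 5 of 11 in B lineage cells (median 0.91, against 12.8%) and 5 of 11 in T and NK cells (median 0.91, against 8.55%), with 0 downwards in each. In mature neutrophils 1 of 11 was past it upwards (median 0.09, against 10.7%). On plain CPM the numbers past the fold upwards were 1, 4, 0 and 1 in that order. Junb, a subunit of the AP-1 transcription factor, had 29.5 and 64.6 CPM at steady state and after stroke in granulocyte progenitors, and 64.7 and 130 CPM in monocytes. Jun, its partner in the same family, had 68.0 and 39.5 CPM in monocytes, the opposite direction. Dissociation and stroke cannot be told apart as sources of these values, since each library was prepared once.

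Some lineages held too few cells for gene ratios. Megakaryocyte-gated cells were 1.27% of cells at steady state (104 cells) and 0.309% after stroke (7 cells), with exact counting intervals of 1.04 to 1.53% and 0.124 to 0.636%. Macrophage-gated cells were 1 and 14, basophil- and mast-gated cells 66 and 24, conventional dendritic cells 50 and 11, and eosinophil-gated cells 3 and 0. The exact interval of that 0 reaches 0.163% of cells.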
